A study of Homo sapiens with 2 samples.

Results

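The AP-1 transcription factor genes examined here are 10 genes, FOS, FOSB, FOSL1, FOSL2, JUN, JUNB, JUND, ATF3, MAFF and MAFK, chosen by name from the 16654 genes with values in this RNA-seq series. All 10 were found, and 9 of them had a mean of at least 1 FPKM over the libraries, as did 10894 genes in all. HUCCT-1 cells, a long-established line from a human cholangiocarcinoma of the intrahepatic bile ducts, grown in RPMI-1640 medium with fetal bovine serum, were exposed for 48 h to vehicle or to 5 μM XY101, a nuclear receptor antagonist, and 1 library of each was sequenced. The labels also mention the antagonist GSK805, which was not analysed here. The vehicle library is numbered 2 in its label, and only that control was used. The comparison asks how AP-1 genes differed between these libraries, and because each condition is a single library, replicate spread could not be measured and no p-value is given. Culture, handling and library therefore cannot be told apart from XY101.

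AP-1 is a family of dimeric transcription factors that bind DNA through a basic region and a leucine zipper (bZIP). FOS proteins pair with JUN proteins, JUN proteins also pair with each other, ATF3 pairs with JUN proteins, and the small MAF proteins MAFF and MAFK lack a transactivation domain and act mainly through partners of the NFE2 and BACH families. Growth factor signalling through ERK and JNK raises the transcription of several of these genes and stabilizes some of their proteins, and in carcinoma cells AP-1 is known for its part in proliferation, invasion and inflammatory gene expression.

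The values are FPKM, fragments scaled to transcript length and to the mapped fragments of the library, so levels of different genes in 1 library are on a per-length scale. The libraries detected 14666 (vehicle) and 14719 (XY101) genes above 0, and the spacing of their low FPKM values gave an approximate depth of 17500000 and 18000000 fragments. Ratios are log2 of XY101 over vehicle with 0.1 FPKM added to each, which makes differences of genes at low FPKM look smaller. The median gene at a mean of at least 1 FPKM had a log2 ratio of 0.09. Of the 7 cholangiocyte and epithelial markers, all were detected, from 14.61 to 5080.23 FPKM with vehicle and from 7.41 to 4184.91 FPKM with XY101, led by the biliary keratin gene KRT7. Of the leukocyte markers analysed, PTPRC was 0.02 FPKM with vehicle and listed at 0 with XY101, LYZ was 0.19 and 0.09 FPKM, and CD68, a lysosomal gene that other cells also express, was 63.58 and 47.17 FPKM. The 4 endothelial markers stayed at or below 0.5 FPKM. The epithelial markers summed to 10037.9 FPKM under vehicle and 8422.42 FPKM under XY101, with a median log2 ratio of -0.25 and with SOX9 lowest at -0.97, and their part in the AP-1 values was not tested. In bulk RNA, fewer cells of a kind and less RNA per cell cannot be told apart.

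The pattern across the AP-1 genes was uneven. FOSL1, by far the most abundant of them with vehicle, was 2.37-fold lower with XY101, and the 3 genes ATF3, MAFF and MAFK were 1.42-fold to 1.49-fold lower. FOS, at a low level, was 1.85-fold higher, while FOSL2, JUN, JUNB and JUND all lay within 1.2-fold of their vehicle level. Among the 9 members at a mean of at least 1 FPKM, 1 was at least 2-fold lower, where 0.698% of all 10894 genes were, and 0 were at least 2-fold higher, where 1.17% of all genes were. At a threshold of 1.5-fold the counts were 1 lower and 1 higher (FOS), against 2.32% and 4.9% of all genes. With ratios centred on the median gene, ATF3, MAFF and MAFK joined FOSL1 and 4 members were at least 1.5-fold lower, as were 366 of the 10894 genes. The median log2 ratio of the 9 members was -0.22, beside 0.09 over all genes, and 6 of the 9 lay below the median gene.

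**Figure D1:**
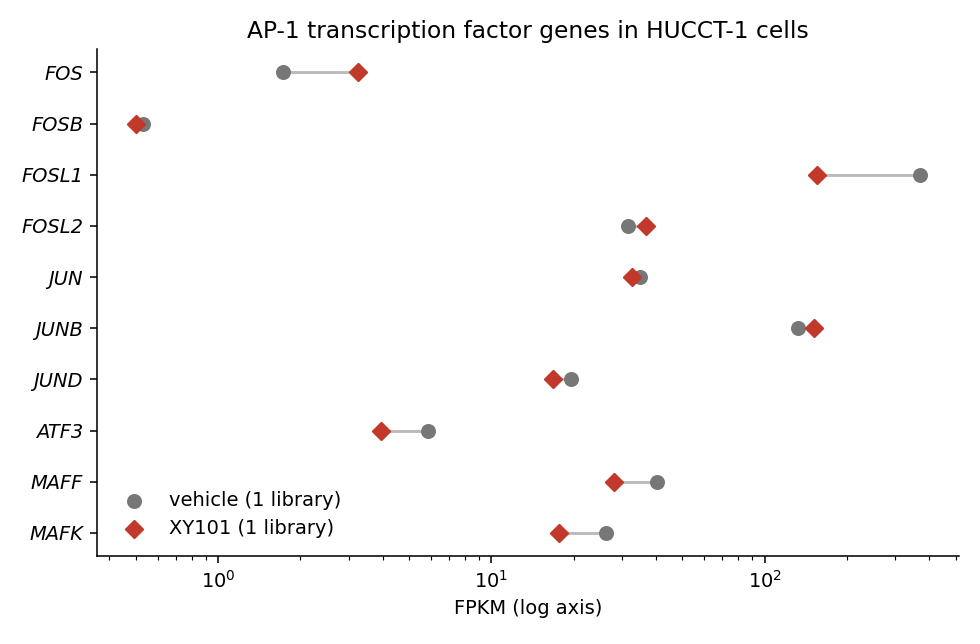
FPKM of the 10 AP-1 genes on a log axis, with a grey circle for the vehicle library and a red diamond for the XY101 library (1 library each, no error bars). FOSL1 is 369.29 and 155.94 FPKM, FOS is 1.72 and 3.26 FPKM, and the JUN genes keep their order of JUNB, JUN and JUND.

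The members lie on 7 chromosomes. Coordinates are those of GENCODE release 44 on GRCh37, the build named in the study's methods. FOSL1 occupies bases 65659520 to 65668044 of chromosome 11 on the minus strand, and FOS lies on the plus strand of chromosome 14 from 75745529 to 75748933. FOSB lies on chromosome 19 from 45971253 to 45978437 and FOSL2 on chromosome 2 from 28615315 to 28640184, both on the plus strand. Each of these 4 genes has 4 exons in its canonical transcript. The JUN genes have a single exon, with JUN at bases 59242517 to 59249720 of chromosome 1, minus strand, JUNB on the plus strand of chromosome 19 from 12902300 to 12904129 and JUND at bases 18390504 to 18392432 of chromosome 19, minus strand. ATF3 lies on chromosome 1 from 212738676 to 212794119, MAFF on chromosome 22 from 38596774 to 38612514 and MAFK on chromosome 7 from 1570338 to 1582679, all on the plus strand.

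Promoter sequences show what members with unlike ratios share. RefSeq starts (assembly GRCh38.p14, a different build from the coordinates above) were matched by symbol for 8 members with 10 starts, while FOSL1 and MAFK were not analysed for promoter sequence here. In the 250 bases before the start, searched on both strands, the half-site TGACG, to which ATF, CREB and JUN dimers can bind, was present in 7 of the 10 member windows (7 of the 8 genes, all but ATF3) and in 21.2% of all 35116 promoters of that length. The full cAMP response element TGACGTCA, which contains TGACG, was present in 2 member windows (JUND and MAFF) and in 1.65% of all promoters. The AP-1 site TGANTCA was found in none of the member windows and in 6.57% of all promoters, and the CArG box bound by SRF in none and in 1.16%. With 10 windows at such shares, a count of none carries little information. Only these exact letters were matched, so other forms of either motif inside the windows were not counted. Bases further upstream were not searched, so these genes, FOS among them, may carry either motif there. The half-site AGGTCA, a core that many nuclear receptors bind, was found in 1 member window (ATF3) and in 12.1% of all promoters. What is said of ATF3, for this half-site and for TGACG, covers only the 2 starts matched here. Other starts of that gene were not searched. A match of letters is a description and not a binding site. The promoters of FOS, the member with the highest ratio, and of JUND and MAFF, the carriers of the full element, are shown 5′ to 3′ on the gene strand with TGACG on either strand in capitals, for FOS at chr14:75278578-75278827 (plus strand), for JUND at chr19:18281623-18281872 (minus strand) and for MAFF at chr22:38201744-38201993 (plus strand):
FOS: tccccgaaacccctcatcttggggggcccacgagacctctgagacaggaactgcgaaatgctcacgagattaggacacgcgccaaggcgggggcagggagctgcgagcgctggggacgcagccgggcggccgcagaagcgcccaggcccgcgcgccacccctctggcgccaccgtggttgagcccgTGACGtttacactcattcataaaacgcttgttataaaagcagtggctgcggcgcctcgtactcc
JUND: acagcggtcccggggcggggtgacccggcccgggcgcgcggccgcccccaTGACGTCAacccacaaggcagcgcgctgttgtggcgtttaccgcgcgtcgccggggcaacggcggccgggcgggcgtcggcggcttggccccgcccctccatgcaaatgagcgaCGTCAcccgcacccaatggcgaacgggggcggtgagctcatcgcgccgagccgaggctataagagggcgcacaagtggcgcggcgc
MAFF: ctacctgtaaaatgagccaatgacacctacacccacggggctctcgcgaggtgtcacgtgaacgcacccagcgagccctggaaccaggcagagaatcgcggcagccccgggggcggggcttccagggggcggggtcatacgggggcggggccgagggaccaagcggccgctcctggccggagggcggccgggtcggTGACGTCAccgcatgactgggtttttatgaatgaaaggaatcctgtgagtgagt

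Among the FOS family, FOSL1, which encodes FRA-1, a FOS protein without the C-terminal transactivation domain and abundant in many invasive carcinoma lines, set the total. FOSL1 was 369.29 FPKM with vehicle, the 288th highest level of all genes, and 155.94 FPKM with XY101, the 669th. The log2 ratio was -1.24, the 41st lowest of 10894 genes. Of the 337 genes at 300 FPKM or more with vehicle, 2 were at least 2-fold lower, FOSL1 among them, a share near the 0.698% of all genes. At the approximate depth, and taking the median length over coding transcripts, FOSL1 corresponds to about 5816 fragments against 2498, and the exact binomial 95% counting interval of its log2 ratio ran from -1.31 to -1.18. Such intervals cover counting error only and leave out the variation between cultures.

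FOSL2, which encodes FRA-2, the closest relative of FRA-1, was 31.46 FPKM under vehicle and 36.85 FPKM under XY101. Its log2 ratio of 0.23 (counting interval 0.16 to 0.30) lay 0.13 above the median gene. FOS, the immediate early gene that encodes the full-length c-FOS protein, was 1.72 and 3.26 FPKM. This was the highest ratio of any member, with a log2 ratio of 0.88, the 176th highest of all 10894 genes. It rests on few fragments, about 16 against 31 at the median coding length with an interval from 0.03 to 1.91, or about 54 against 105 with the canonical transcript and an interval from 0.44 to 1.43. FOSB, its serum-induced relative, was 0.53 and 0.50 FPKM, under the level used for counts, and its interval from -0.89 to 0.71 did not resolve a direction.

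**Figure D2:**
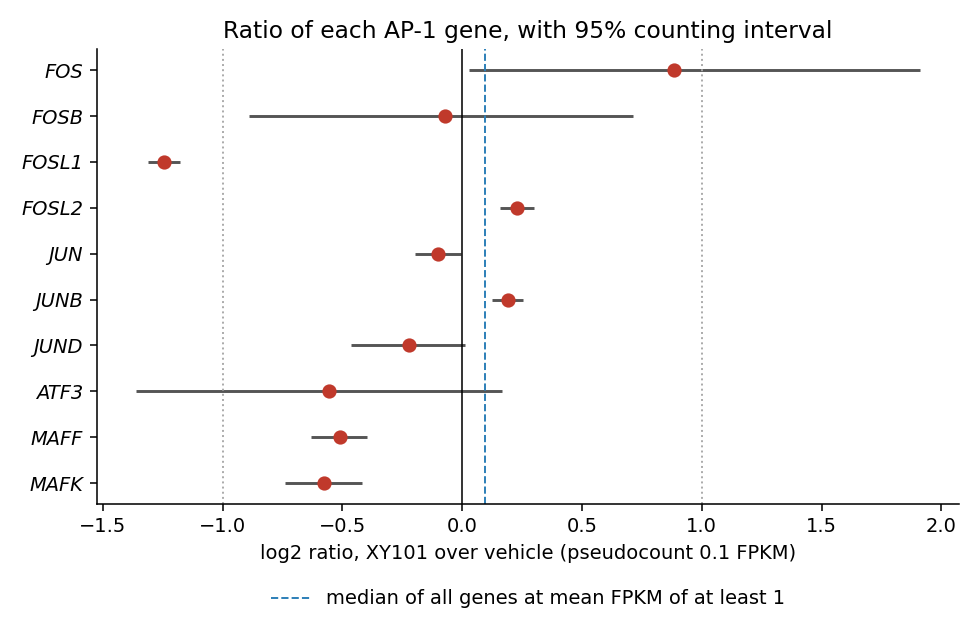
The log2 ratio of XY101 over vehicle for each AP-1 gene (red points, pseudocount 0.1 FPKM) with its 95% counting interval at the median coding transcript length (horizontal lines), dotted lines at 2-fold and a dashed line at the median of all genes (0.09). FOSL1 alone lies beyond the 2-fold line, and the intervals of FOSB, JUND and ATF3 span 0.

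Because FOSL1 was both abundant and lower with XY101, the composition of the FOS family differed between the libraries. The summed FPKM of the 4 FOS genes was 403.0 with vehicle and 196.55 with XY101, 2.05-fold lower. FOSL1 made up 91.6% of that sum with vehicle and 79.3% with XY101, whereas FOSL2 made up 7.81% and 18.7%. FOS itself supplied 0.427% and 1.66%. Without FOSL1 the remaining sum was 33.71 and 40.61 FPKM, 1.20-fold higher, so the lower family total came from FOSL1. FOSL1 exceeded FOSL2 by 11.7-fold in FPKM with vehicle and by 4.23-fold with XY101.

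The JUN family showed little difference. JUNB, which pairs with FOS proteins and is often a weaker activator than c-JUN, was the most abundant, at 132.51 FPKM under vehicle and 151.10 FPKM under XY101 (log2 ratio 0.19, counting interval 0.12 to 0.25). JUN, which encodes c-JUN, the main target of JNK, was 35.06 and 32.69 FPKM (log2 ratio -0.10, interval -0.20 to -0.01). JUND, the member that is broadly expressed in resting cells, was 19.59 and 16.77 FPKM (log2 ratio -0.22). Its interval ran from -0.47 to 0.01 at the median coding length and from -0.40 to -0.04 with the canonical transcript. The order JUNB, JUN, JUND held in both libraries. The family sum was 187.16 and 200.56 FPKM, a log2 ratio of 0.10, close to that of the median gene, and JUNB supplied 70.8% and 75.3% of it.

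**Figure D3:**
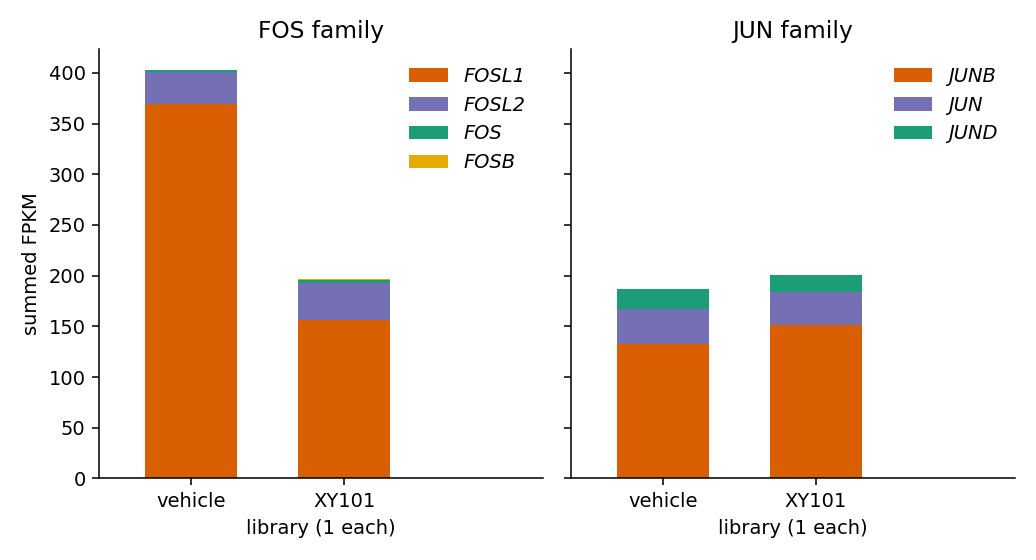
Stacked bars of the summed FPKM of the FOS family (left) and the JUN family (right) in the vehicle and XY101 libraries (1 each), split by gene. The FOS total is 403.0 FPKM with vehicle and 196.55 FPKM with XY101, and the FOSL1 segment carries the difference, while the JUN total is 187.16 and 200.56 FPKM.

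The FOS to JUN ratio of summed FPKM was 2.15 with vehicle and 0.980 with XY101. FOSL1 exceeded JUNB 2.79-fold with vehicle and equalled it within 1.03-fold with XY101. The FPKM sum of all 10 genes was 662.5 and 446.86, and without FOSL1 it was 293.21 and 290.92. These are levels of RNA, and the amounts of protein and of dimers were not measured in these libraries.

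ATF3, MAFF and MAFK were lower by similar amounts. ATF3, a stress-induced bZIP factor that often represses its targets, was 5.86 FPKM under vehicle and 3.95 FPKM under XY101 (log2 ratio -0.56). Its interval depended on the transcript taken, from -1.36 to 0.17 at the median coding length (about 39 against 26 fragments) and from -0.92 to -0.22 with the canonical transcript (about 168 against 116). MAFF, the inducible small MAF gene, was 40.20 and 28.19 FPKM (log2 ratio -0.51, interval -0.63 to -0.40). MAFK, the more constant small MAF gene in many tissues, was 26.28 and 17.61 FPKM (log2 ratio -0.57, interval -0.74 to -0.42). None reached 1.5-fold as deposited. Centred on the median gene, all 3 did, with log2 ratios of -0.65 (ATF3), -0.60 (MAFF) and -0.67 (MAFK), and with upper-quartile scaling ATF3 (-0.62) and MAFK (-0.64) did. In order of ratio they were the 259th (MAFK), 278th (ATF3) and 338th (MAFF) lowest of the 10894 genes. MAFG, the remaining small MAF gene and not a member of the group, was 13.59 and 13.63 FPKM.

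Some members overlap other genes, and whether the counting used strand was not stated in the sources, so reads from such pairs cannot be told apart with certainty. The opposite-strand neighbours were HOOK2 for JUNB (14.21 FPKM with vehicle and 14.31 with XY101), ERCC1 for FOSB (30.27 and 25.03 FPKM), PLA2G6 for MAFF (0.5 and 0.54 FPKM) and TMEM184A for MAFK (3.03 and 4.29 FPKM). FOSL2 and ATF3 overlapped non-coding RNA genes, whereas FOSL1, FOS, JUN and JUND overlapped no other annotated gene. No 100-base window of FOSL1, FOS, FOSB, FOSL2, JUN, JUND or ATF3 was shared with a transcript of another gene, on either strand. MAFK shared 710 of its 3281 windows with TMEM184A, MAFF 227 of 2275 with PLA2G6 and JUNB 160 of 1731 with HOOK2.

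Other bZIP genes related to AP-1 gave a mixed picture. Of 11 listed, 7 reached a mean of 1 FPKM, with a median log2 ratio of 0.00. Of these, 1 was at least 2-fold lower, beside 0.698% of all genes, and none was at least 2-fold higher, beside 1.17%. The lower gene was BATF3, a JUN partner best known from dendritic cells, at 2.02 FPKM under vehicle and 0.53 FPKM under XY101 (log2 ratio -1.75, about 19 against 5 fragments, interval -3.72 to -0.47). It reached the mean of 1 FPKM only through the vehicle library and gives no support as a count. BATF, its relative, was 28.72 and 34.81 FPKM, and BATF2 was 1.61 and 1.22 FPKM. JDP2, a repressor that binds JUN, was 10.11 and 9.38 FPKM. The constitutive JUN partners ATF2 (3.97 and 5.51 FPKM) and ATF7 (12.31 and 14.79 FPKM) had log2 ratios of 0.46 and 0.26.

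Among 6 partners of the small MAF proteins, 5 were at a mean of at least 1 FPKM. NFE2, the erythroid partner and the gene at least 2-fold higher, reached that mean only through the XY101 library and gives no support as a count. It was 0.37 FPKM under vehicle and 2.20 FPKM under XY101 (log2 ratio 2.29, about 9 against 53 fragments). The others lay within 1.5-fold. NFE2L2, which encodes NRF2, was 19.45 and 26.67 FPKM (log2 ratio 0.45). NFE2L1 and NFE2L3 had log2 ratios of 0.17 and -0.19. Of 7 partners and inducers of ATF3, none reached 2-fold and the median was 0.05. ATF4, the integrated stress response factor upstream of ATF3, was 529.7 and 546.53 FPKM, whereas DDIT3, which encodes CHOP, was 35.52 and 25.64 FPKM (log2 ratio -0.47). ATF5 and CEBPD had log2 ratios of 0.54 and 0.31.

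Lists of genes that act on AP-1 held few large differences, as did all genes, 92.8% of which lay within 1.5-fold. Of 18 MAP kinase pathway genes at a mean of at least 1 FPKM, none reached 1.5-fold in either direction and the median log2 ratio was 0.03. The lowest was MAP2K3, a p38 activator, at 73.04 FPKM under vehicle and 52.57 FPKM under XY101 (log2 ratio -0.47), and the p38 genes MAPK11 and MAPK14 had ratios of 0.38 and 0.33. SRF and the ternary complex factors, which drive FOS transcription, also showed no member at 1.5-fold, with a median of 0.06 over 6 genes. The ternary complex factor gene ELK4 and the SRF coactivator gene MRTFA had log2 ratios of 0.38 and 0.26, and SRF was 16.56 and 14.43 FPKM (-0.20). The list of AP-1 protein turnover and repression also holds JUP, the junction plakoglobin gene, which the name does not cover (227.51 and 273.14 FPKM, log2 ratio 0.26). Of the 10 genes in that list, 1 was at least 1.5-fold higher, beside 4.9% of all genes, none was lower by that much and the median was 0.20. That gene was TRIB2, a pseudokinase adaptor of the ubiquitin ligase COP1, at 5.29 and 8.97 FPKM, while COP1 was 11.19 and 12.88 FPKM.

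FOS, FOSB, JUN, JUNB and ATF3 are immediate early genes, which also respond to handling of cultures, so other such genes were set beside them. Of 15 at a mean of at least 1 FPKM, 1 was at least 2-fold lower, beside 0.698% of all genes, and 1 at least 2-fold higher, beside 1.17%. At 1.5-fold, 3 were lower, beside 2.32% of all genes, and 1 was higher, beside 4.9%. The median log2 ratio was -0.04. CCN1, a matricellular gene, was 842.66 FPKM under vehicle and 368.03 FPKM under XY101 (log2 ratio -1.19), and its relative CCN2 was 27.59 and 15.41 FPKM (-0.84). KLF2 was 2.59 and 5.39 FPKM (1.03) and NR4A1 4.95 and 3.08 FPKM (-0.67). EGR1 and IER2, which share serum response control with FOS, had log2 ratios of 0.23 and 0.13, below the 0.88 of FOS. Both were named after their values were seen, and the list ran from CCN1 (-1.19) to KLF2 (1.03), which lay above FOS. The 13 mitochondrially encoded genes, a sign of RNA quality, had a median of 0.05 and ran from -0.43 (MT-ND4) to 0.27 (MT-ND2). The part of handling in the FOS value was not tested.

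**Figure D4:**
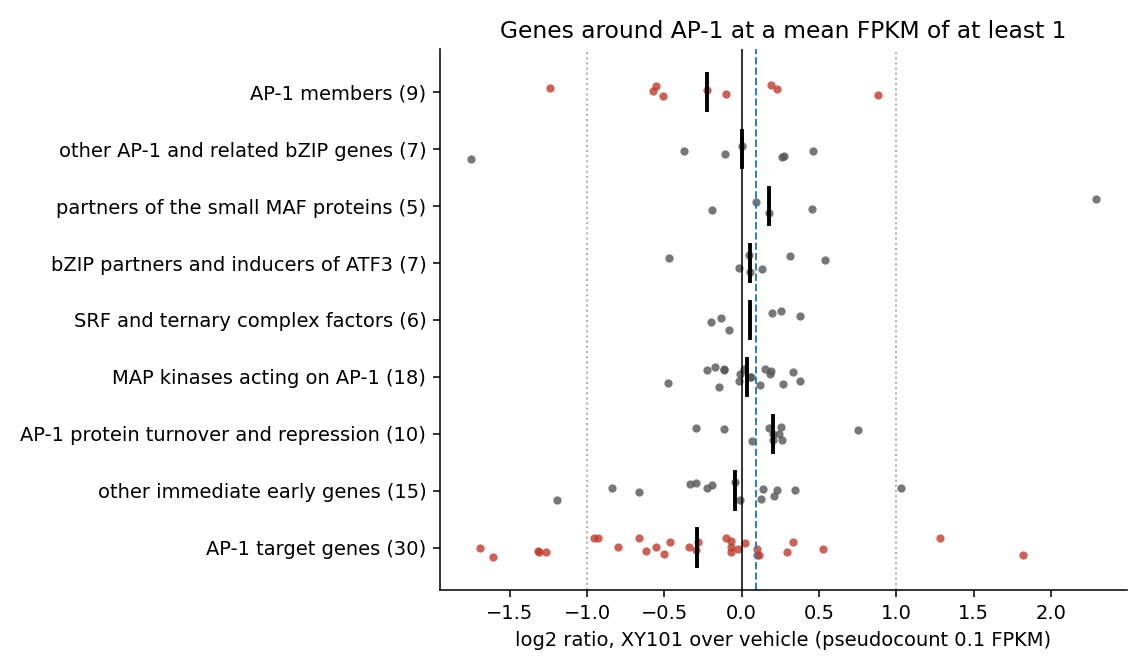
The log2 ratio of XY101 over vehicle for each gene at a mean of at least 1 FPKM, in 9 lists (number of genes in brackets), with black bars at the list medians, dotted lines at 2-fold and a dashed line at the median of all genes. The AP-1 members (median -0.22) and the AP-1 target genes (median -0.29), in red, have the lowest medians of these lists. The cholangiocyte and epithelial markers, not plotted, had a median of -0.25, below that of the members.

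Genes known as AP-1 targets in human or rodent cells were lower more often than higher. Of 35 listed, 30 were at a mean of at least 1 FPKM, and of these 21 lay below 0 and 22 below the median gene. At least 2-fold lower were 5 genes, 16.7% of the list beside 0.698% of all genes, and 2 were at least 2-fold higher, 6.67% beside 1.17%. At 1.5-fold, 10 were lower, 33.3% beside 2.32% of all genes, and 2 were higher, 6.67% beside 4.9%. The median log2 ratio was -0.29, beside 0.09 over all genes. Several of these genes also answer to other factors, and the list was chosen with some of their values already known, so the count does not stand for AP-1 activity.

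The genes at least 2-fold lower were HBEGF, IL11, KRT17, SPRR2A and SPRR1B. HBEGF, an EGF receptor ligand, was 77.75 FPKM under vehicle and 31.15 FPKM under XY101 (log2 ratio -1.32). IL11, a cytokine of the interleukin 6 family, was 28.09 and 9.13 FPKM (-1.61). KRT17, a keratin of activated epithelium that has closely related copies, was 48.73 and 20.20 FPKM (-1.27). SPRR2A and SPRR1B, cornified envelope precursors of families with similar copies whose reads may be divided, had log2 ratios of -1.69 and -1.31. At the median coding length SPRR1B rests on about 21 fragments against 8. Among lower genes short of 2-fold, FGFBP1, a carrier of secreted FGFs, was 11.13 and 5.68 FPKM (-0.96).

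The 2 higher targets were PTGS2 and MMP7. PTGS2, the inducible prostaglandin synthase gene, was 3.38 FPKM under vehicle and 12.21 FPKM under XY101 (log2 ratio 1.82). MMP7, which encodes the epithelial protease matrilysin, was 119.08 and 289.51 FPKM (1.28). The matrix metalloproteinase genes MMP1 and MMP10 differed little, where MMP1 was 41.03 and 39.13 FPKM and MMP10 was 1.59 and 1.73 FPKM. PLAU, the urokinase gene, and PLAUR, which encodes its receptor, were both lower by at least 1.5-fold, at log2 ratios of -0.93 and -0.62. CCND1, the cyclin D1 gene and a FOS and JUN target in proliferating cells, was 111.32 and 106.12 FPKM.

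**Figure D5:**
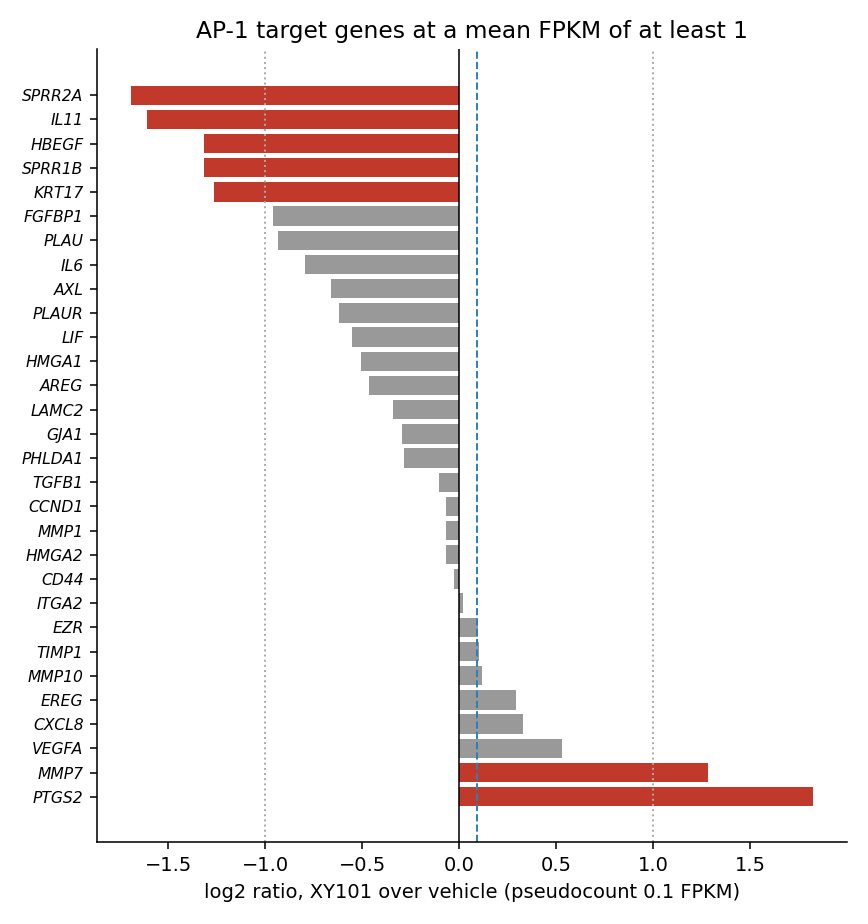
The log2 ratio of XY101 over vehicle for the 30 AP-1 target genes at a mean of at least 1 FPKM, in order, with bars in red at 2-fold or more, dotted lines at 2-fold and a dashed line at the median of all genes (0.09). The 5 genes at the lower end run from SPRR2A (-1.69) to KRT17 (-1.27), and MMP7 and PTGS2 stand apart at the upper end.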

How the data were processed

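RNA of HUCCT-1 cells was sequenced after poly(A) selection, with 1 vehicle and 1 XY101 library. The authors deposited FPKM, per the file headers, with 2 decimals. The study's methods name GRCh37/hg19, BWA, Bowtie 2 and RSEM, whereas the submitters' processing notes list GRCh38, HISAT2 and HTSeq 0.11.2, so how reads of overlapping genes were divided is not settled. Of 17424 rows in the table, 770 without a gene (annotation text) were not used.

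Log2 ratios used a pseudocount of 0.1 FPKM, counts a mean of at least 1 FPKM and 2-fold, and no test was run. Depth was the value that, with a subtracted offset in length, turned the most low FPKM of single-transcript genes (GENCODE release 44) into whole fragments within 0.2. This held for 83.0% of 106 values with vehicle and 80.2% of 101 with XY101. Depth and offset were chosen to make these percentages highest, so the percentages do not check the depth. Counting intervals (exact binomial, 95%) used that depth and the median coding transcript length, and are approximate. Steps were tested on simulated data.

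All 10 members were named, with up to 4 genes per other list by absolute ratio (up to 8 for AP-1 targets, all for related bZIP and related receptor genes). MMP1, MMP10, PLAU, PLAUR, CCND1, COP1, EGR1, IER2, ATF4, PDGFRB, COL3A1 and DCN were added after their values were seen. Members and lists were chosen with earlier results of these data known. Of the receptor list, NR1D1 was 4.85 and 3.96 FPKM, NR1D2 4.03 and 3.99, RORA 0.04 and 0.03, and RORB was listed at 0 in both. Of the 5 fibroblast markers, COL1A1 was 7.01 and 9.82 FPKM and LUM 1.05 and 1.37. The rest were near 0, with PDGFRB at 0.19 and 0.22, COL3A1 at 0.04 and 0.02, and DCN at 0.03 and listed at 0. The hepatocyte marker APOA1 was 0.09 and 0.10. IVL, ALB, APOB, TTR, CYP3A4 and CD3E were not analysed here, and some items are not reported here and were left out of the lists. Alternatives covered the pseudocount, filter, threshold, centring, scaling and transcript length. Calculations used numpy 2.4.6, pandas 2.3.3 and scipy 1.17.1 in Python 3.11.15, with plots from matplotlib 3.10.9.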

Additional observations from a re-analysis of the deposited data

How the results depend on the processing

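The member results held under most alternatives. The log2 ratio of every member kept its sign over the 6 settings of pseudocount, centring and scaling. An equal pseudocount cannot change a sign, and centring or scaling shifts all genes by nearly the same small amount. The kept signs therefore say little about members with large ratios. FOSL1 lay between -1.34 and -1.20 and FOS between 0.65 and 0.93, and FOSL1 was at least 2-fold lower in each setting. Of the settings tried, only the threshold moved the 2-fold member counts, since at 1.5-fold FOS made 1 gene higher and at 3-fold 0 genes were lower. The 1.5-fold member counts, whose alternatives were added after seeing the data, moved to 4 lower with centring and 3 lower with upper-quartile scaling, and to 0 higher at a mean of at least 5 FPKM. The 1.5-fold counts over all genes became 291 higher with a pseudocount of 1 FPKM, 1259 higher and 765 lower without a filter, 230 and 127 at a mean of at least 5 FPKM, and 336 higher and 366 lower with centring. The FOS family sum reversed to a log2 ratio of 0.27 without FOSL1, and centring on the median gene moved the family sums to -1.13 (FOS) and 0.0065 (JUN). Centring also moved the counts over all genes from 127 higher and 76 lower (62.6% higher) to 96 and 95 (50.3% higher). Those counts were 69 and 41 with a pseudocount of 1 FPKM, 409 and 268 without a filter, 53 and 34 at a mean of at least 5 FPKM, 534 and 253 at 1.5-fold, and 41 and 18 at 3-fold. BATF3 no longer reached 2-fold with a pseudocount of 1 FPKM, and KLF2 no longer with that pseudocount, with centring or with upper-quartile scaling. The median of the AP-1 targets stayed between -0.38 and -0.19. The 5 targets at least 2-fold lower became 4 with a pseudocount of 1 FPKM or at a mean of at least 5 FPKM. They became 6 with upper-quartile scaling and 7 with centring, while 2 targets stayed higher in each of these settings. At 3-fold, 2 targets were lower and 1 was higher. The counting intervals of JUND and ATF3 excluded 0 with the longest or canonical transcript, and the shortest FOS transcript gave no value. The alternatives that used the canonical transcript or left out FOSL1 or FOS from the members' median (-0.16 and -0.37) were chosen after seeing the data. No paired analysis was possible because there was 1 library per condition.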
